A study of Mus musculus with 132 samples.

Results

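The 45 genes described here encode ligands, receptors, SMADs, inhibitors and ID targets of the BMP, Nodal and TGF-beta pathways. The list consists of gene names, with no threshold on a measured value, and all 45 were found among the 25146 genes of a table of poly(A)-minus RNA-seq read counts. They comprise 12 ligands, 11 receptors and co-receptors, 8 SMADs, 6 secreted inhibitors, 4 membrane and intracellular inhibitors and 4 ID genes. The table covers 23 libraries of a differentiation series from mouse embryonic stem cells (mESCs) through mesoderm to hematopoietic progenitor cells (HPCs). All libraries came from the male E14-TG2a line of strain 129/Ola. Undifferentiated mESCs (day 0) were grown feeder-free with LIF, and the 2 wild-type libraries are labelled as technical replicates of 1 E14 culture. Flk1+ mesoderm was sorted at day 4 after culture in BMP-4, with bFGF and Activin A added later, so ligands of both branches of the pathway were supplied in the medium. Ter119- CD41+ CD45- HPCs were sorted at day 7 after further culture with SCF and VEGF. Wild-type mesoderm (3 libraries) and HPCs (4 libraries) came from the clones C6.1, C8.1 and B9.3, with B9.3 sequenced as 2 HPC libraries. P1-CTCF-KO cells lack the CTCF site next to the distal (P1) promoter of Runx1 after CRISPR-Cas9 deletion, and their clones E7.1, E7.2 and E9.1 gave 1 mesoderm and 1 HPC library each. P2-CTCF-KO cells lack the CTCF site next to the proximal (P2) promoter, and their clones D2.1, D10.1 and E9.1 gave 3 mesoderm and 5 HPC libraries, 2 HPC libraries each for D2.1 and D10.1. The deletions remove non-coding DNA, so no RNA level checks these labels.

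BMPs, Nodal, activins and TGF-betas are secreted dimers that bring together type I and type II serine/threonine kinase receptors. The receptors phosphorylate SMAD1, SMAD5 and SMAD9 in the BMP branch or SMAD2 and SMAD3 in the Nodal, activin and TGF-beta branch, and these enter the nucleus with SMAD4. BMP and Nodal signals pattern the primitive streak and induce mesoderm, the ID genes are classical BMP targets, and SMAD6, SMAD7, Lefty proteins and BAMBI are feedback inhibitors that the pathways themselves induce.

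Totals were 20532578 and 24283287 counts in mESCs, 18233679 to 24406998 in mesoderm and 7805102 to 13513677 in HPCs. Entries of ribosomal RNA or of several loci took 68.1% and 76.3% of the mESC counts and 87.8% to 91.0% of the counts of the other libraries, and the 45 genes together held 11395 and 23201 counts in mESCs, 1635 to 4763 in mesoderm and 458 to 2203 in HPCs. Of these cells, the study's methods name a depletion of ribosomal RNA for mESCs alone, so stage and library preparation cannot be told apart in any comparison with mESCs. Levels are given as CPM, read counts scaled to library size, on 1 TMM scale over all 23 libraries, on which a single count was worth at most 0.00981 CPM in mESCs but 0.0412 to 0.121 CPM in mesoderm and 0.0698 to 0.203 CPM in HPCs. Low levels are therefore far better measured in mESCs than later. The labels held against marker genes: 8 undifferentiated markers summed to 59.1 and 59.6 CPM in mESCs against at most 4.48 CPM elsewhere, 9 mesoderm markers to 33.4 to 111 CPM in mesoderm against at most 20.5 CPM elsewhere, and 9 hematopoietic markers to 78.2 to 267 CPM in HPCs against at most 24.9 CPM elsewhere. CD45 was at or below 1.01 CPM in every library, but 5 genes of the Ter119 lineage summed to 15.0 to 140 CPM in the Ter119- HPCs. In sorted populations, fewer cells of a type and less RNA per cell cannot be told apart.

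Fold changes come from edgeR's quasi-likelihood test across all genes, with 1 fit per set of groups. To be called, a gene needed a Benjamini-Hochberg adjusted p below 0.05 and a log2 fold change beyond 1 in either direction, and its p-value measures the spread between libraries. In HPCs some of these libraries share a clone, with no statement whether they are separate cultures, and in mESCs they are technical replicates. Of the 45 genes, 28 had their highest wild-type mean in mesoderm, 11 in mESCs and 5 in HPCs, and Grem1, which encodes the BMP antagonist gremlin, had 0 counts in all 23 libraries. All 8 SMADs peaked in mesoderm by this measure. It rests on the TMM scale, whose factors for the mESC libraries were 7.56 and 4.97. Without TMM factors, the log2 fold changes of Smad3, Smad4, Smad5 and Smad7 from mESCs to mesoderm were below 0, as given further on. The heatmap of every gene in every library shows BMP ligands, Tgfb2 and the BMP and activin receptors brighter in mesoderm than in HPCs by group mean in all 3 genotypes. The TGF-beta receptors did not share this: wild-type Tgfbr1 and Tgfbr3 averaged 7.02 and 10.3 CPM in HPCs against 6.00 and 6.62 CPM in mesoderm. Tgfb1 was the brightest row of every wild-type and P1-CTCF-KO HPC column, but among P2-CTCF-KO HPCs only of the first D10.1 library.

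**Figure D1:**
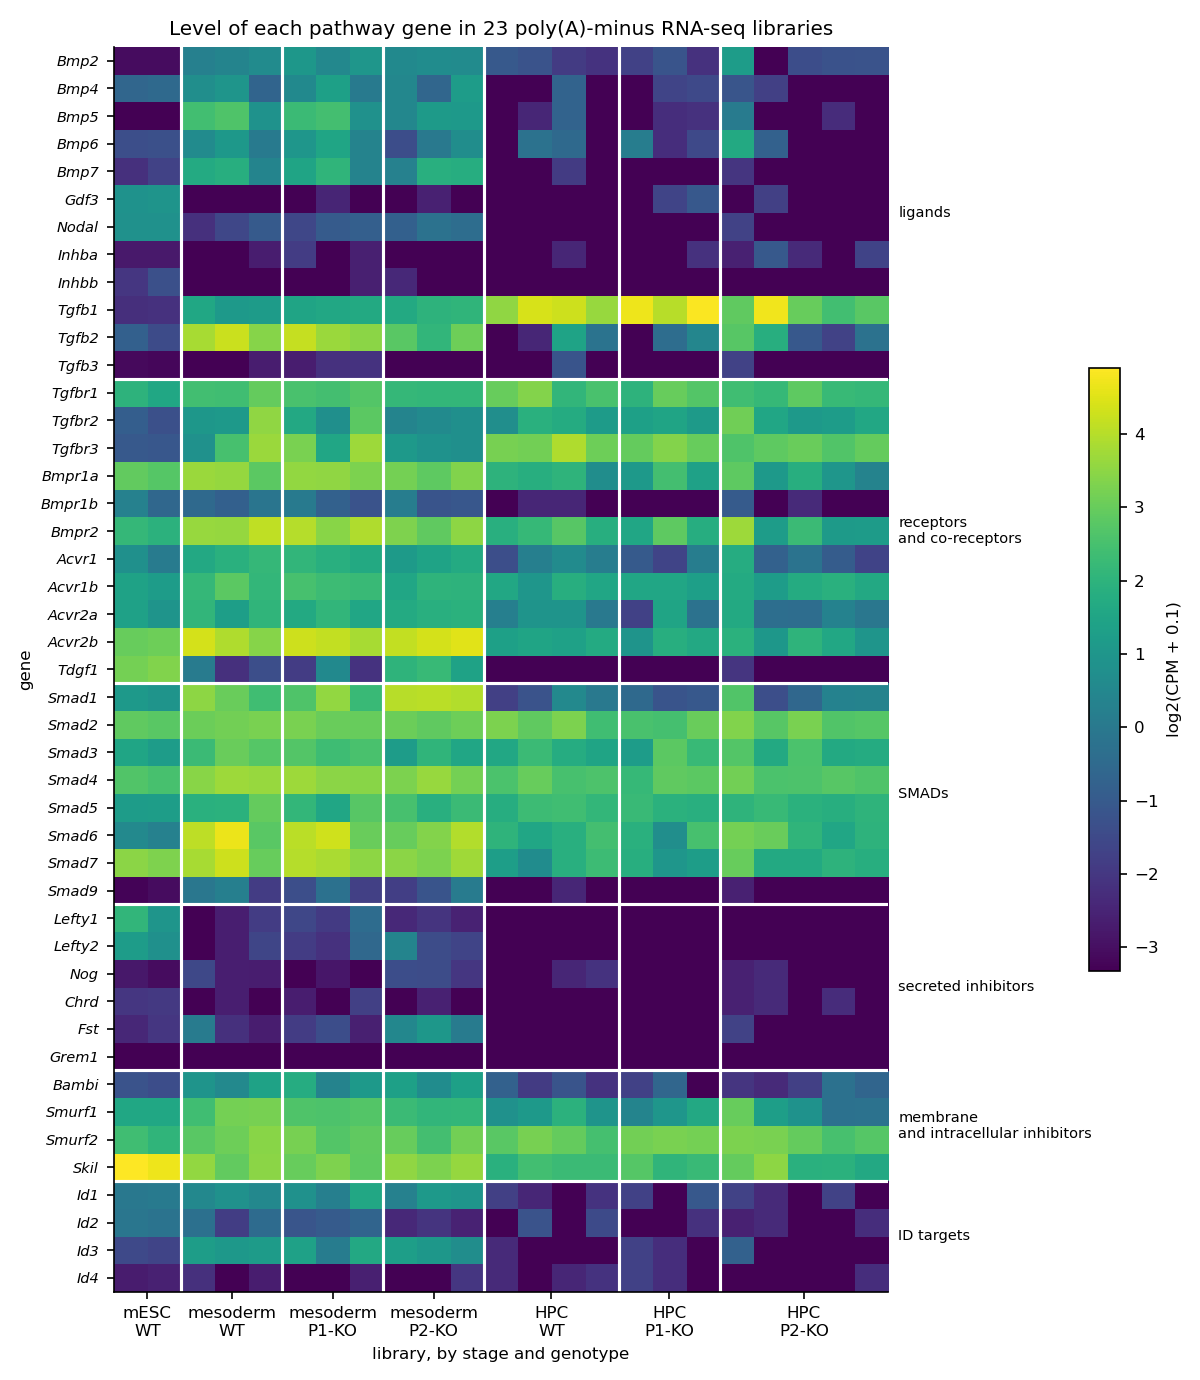
Level of each of the 45 genes (rows, by role) in each of the 23 libraries (columns, by stage and genotype), as log2(CPM + 0.1) on the colour scale. Tgfb1 (5.28 to 28.6 CPM in HPCs) is the brightest row of every wild-type and P1-CTCF-KO HPC library. In P2-CTCF-KO HPCs it is the brightest row of the first D10.1 library alone. Bmp7, Nodal, Tdgf1 and the secreted inhibitors are at or near 0 in HPCs of all 3 genotypes.

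Levels of different genes were compared per kilobase of gene span, since reads over exons and introns were counted. In mESCs, the leading members were Tdgf1 at 1.46 ± 0.104 CPM per kb (SD between the 2 technical replicates of 1 culture), Skil at 0.998 ± 0.104, Lefty1 at 0.893 ± 0.479 and Id1 at 0.793 ± 0.0376. In wild-type mesoderm they were Id3 at 1.38 ± 0.106 CPM per kb (SD, n = 3) and Id1 at 1.25 ± 0.172, which lie within each other's spread, ahead of Smad7 at 0.481 ± 0.199 and Acvr2b at 0.385 ± 0.129. In wild-type HPCs Tgfb1 led at 0.887 ± 0.269 CPM per kb (SD, n = 4), and the next, Skil, stood at 0.165 ± 0.0244. The leading member thus belonged to a Nodal co-receptor in mESCs, to the ID targets in mesoderm and to the ligands in HPCs.

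Between wild-type mESCs and mesoderm, 19 of the 39 members tested rose and 7 fell, against 10.7% and 13.7% of all genes tested. Scaling to the totals of the remaining genes without TMM factors turned this to 9 higher and 12 lower of 36 members. Under it 350 of all 11465 genes were higher and 8564 lower. That scaling moved the median log2 fold change of all genes from -0.18 to -1.84 and that of the members from 1.12 to -0.58, so the members stood 1.30 and 1.26 above all genes. Bmp2, Bmp5, Bmp7, Tgfb1, Tgfb2, Tgfbr2, Tgfbr3, Smad6 and Id3 rose under both. The 2 mESC libraries stem from 1 culture, and when the libraries of a culture or clone were summed, 12 members rose and 6 fell. The calls of Bmp6, Inhbb, Acvr1, Acvr1b, Smad1, Smad3, Smad4, Smad5 and Smurf1 were then lost and Smad9 was called. Without the first mESC library the count was 12 and 5 and without the second 11 and 5, with the same losses plus Nodal and, in the latter case, Tgfbr2. Between mesoderm and HPCs, 1 of the 39 rose and 21 fell, against 10.8% and 12.5% of all genes tested. Their median log2 fold change was -1.96 against -0.0078 for all genes, or -1.53 against 0.37 under the other scaling. There 1 of 36 members was higher and 19 lower, against 1958 and 965 of all 11465 genes. From mESCs to HPCs, 7 rose and 16 fell, against 17.0% and 25.0% of all genes, or 4 and 12 with the libraries of a culture or clone summed. Under the other scaling 4 of 36 members rose and 23 fell, against 796 and 6942 of all 11465 genes. Both steps combined, 11 members rose and then fell, 7 rose without a call at the second step, 7 fell at the second step alone, 3 fell at both, 4 fell at the first alone, 1 rose at both and 6 were called at neither. The remaining 6 were not tested for these steps because their counts were too low: Inhba, Tgfb3, Smad9, Nog, Grem1 and Id4.

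**Figure D2:**
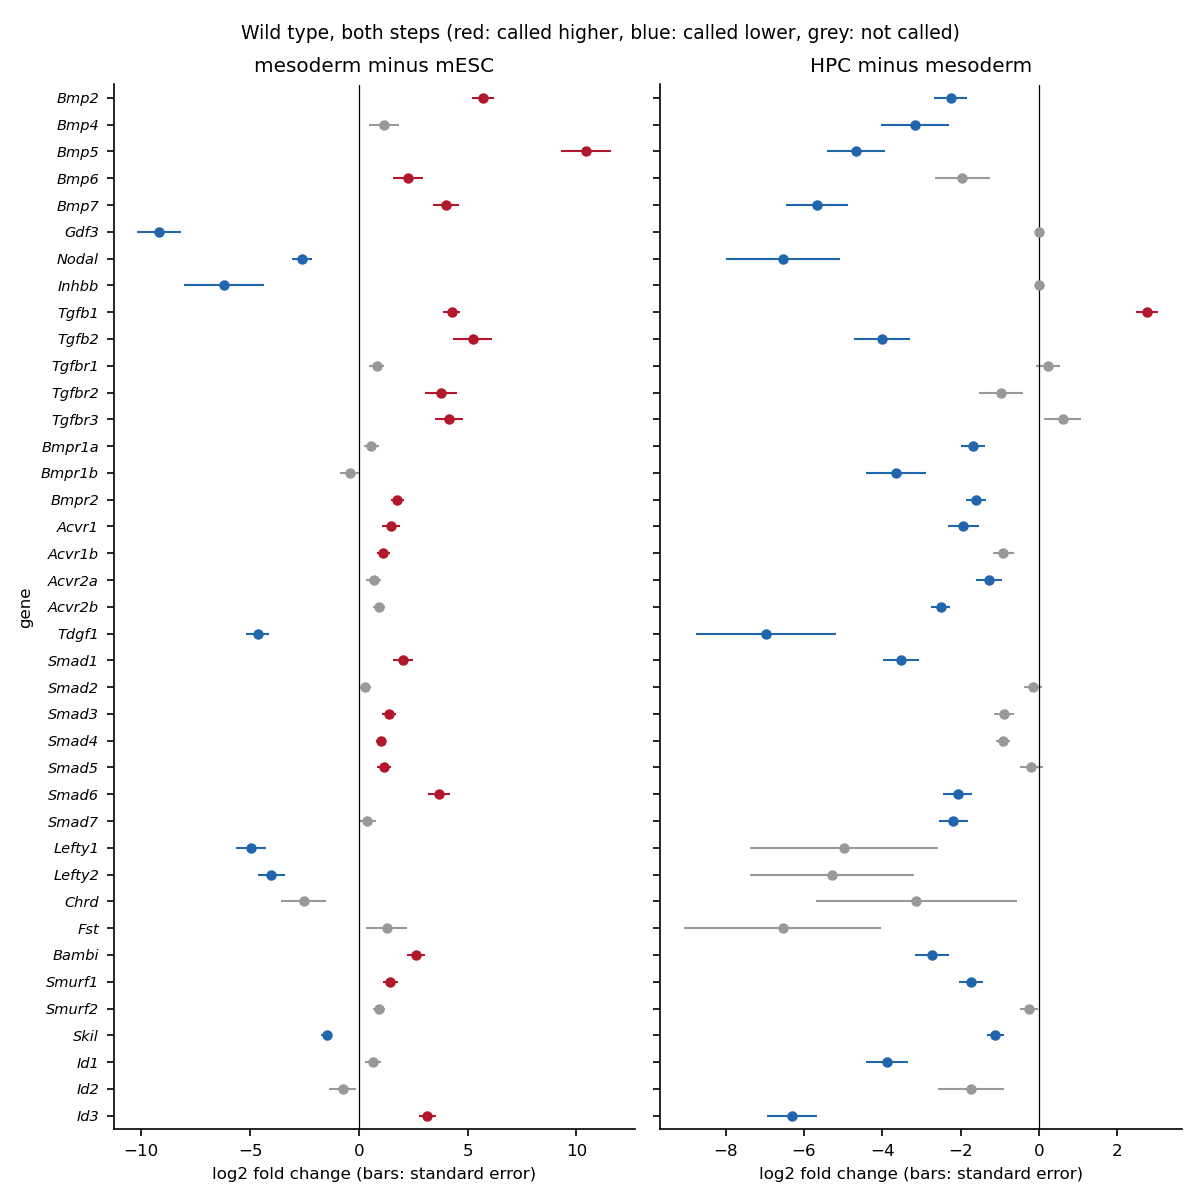
Log2 fold change (x axis) of the 39 tested members (y axis) from mESCs to mesoderm (left) and from mesoderm to HPCs (right) in wild type, with the standard error as bars. Red points were called higher (19 left, 1 right), blue lower (7 left, 21 right) and grey not called, on the TMM scale. Without TMM factors the first step gave 9 members higher and 12 lower, against 350 and 8564 of 11465 genes. Gdf3 and Inhbb had no counts in mesoderm or HPCs and lie at 0 on the right.

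Among the ligands, Bmp2, Bmp5, Bmp6 and Bmp7 were lower in mESCs than in mesoderm, while Bmp4 overlapped between these stages. All of these BMP genes had lower wild-type means in HPCs than in mesoderm, and Tgfb1 alone was called higher at both steps. Values are given for mESC libraries 1 and 2, then for mesoderm of the clones C6.1, C8.1 and B9.3, then for HPCs of C6.1, C8.1, B9.3 and the second B9.3 library. Bmp5 was at 0 in both mESC libraries, at 5.22, 6.12 and 1.74 CPM in mesoderm and at 0, 0.0833, 0.515 and 0 CPM in HPCs. On the TMM scale it was at least 395-fold higher in mesoderm than in mESCs, taking 3 counts over the 2 mESC libraries as the floor. This bound depends on that scale. Bmp5 fell again with a log2 fold change of -4.67 ± 0.75 (SE, adjusted p = 0.0011, edgeR). Bmp7, like Bmp5 a ligand of the ACVR1 group of type I receptors, was at 0.120 and 0.206 CPM in mESCs, 3.16, 3.48 and 1.22 CPM in mesoderm and 0, 0, 0.172 and 0 CPM in HPCs. Its 105 mesoderm counts stood against 2 HPC counts, a ratio of 51.8 with a 95% counting interval of 13.998 to 434. Bmp2 was at 0.0218 and 0.0196 CPM in mESCs, 1.09, 1.20 and 1.45 CPM in mesoderm and 0.395, 0.333, 0.172 and 0.128 CPM in HPCs. The stages did not overlap at either step, with log2 fold changes of 5.72 ± 0.50 (adjusted p = 6.29e-05, edgeR) and -2.25 ± 0.42 (0.00211). Bmp6 was at 0.295 and 0.304 CPM in mESCs, 1.46, 1.98 and 0.928 CPM in mesoderm and 0, 0.750, 0.601 and 0 CPM in HPCs. It rose into mesoderm (2.26 ± 0.68, adjusted p = 0.029, edgeR), a call lost with the mESC libraries summed, and its second step missed the threshold (-1.96 ± 0.69, adjusted p = 0.0554). Txndc5 overlaps Bmp6 on the opposite strand, and since the strand setting of the counting is not given in the sources used here, reads of the pair cannot be told apart.

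Bmp4, whose protein was also supplied in the medium, was at 0.557 and 0.608 CPM in mESCs, 1.58, 1.86 and 0.522 CPM in mesoderm and 0, 0, 0.515 and 0 CPM in HPCs. Its mESC and mesoderm libraries overlapped and were not called apart (1.14 ± 0.68, adjusted p = 0.231, edgeR), but it fell into HPCs (-3.16 ± 0.87, adjusted p = 0.0184), where all 6 counts lay in the first B9.3 library. The same library held 6 of the 7 HPC counts of Bmp5, both of Bmp7 and 31 of the 38 of Tgfb2, and stood apart in 4 smooth muscle markers, which summed to 13.2 CPM (11.7 CPM of it Acta2) against 0.384 to 1.08 CPM in the other 3. Its 9 mesoderm markers summed to 13.2 CPM (the others 2.86 to 7.41), of which Kdr held 11.2 CPM, while T, Eomes, Mesp1, Mixl1 and Etv2 were at 0. The part of either in these counts was not tested. Without the C8.1 mesoderm library the fall of Bmp4 was not called (-2.71, adjusted p = 0.0817, edgeR). Bmp4 lies at chr14:47003199-47010344 on the minus strand of mm9, and a mesoderm ATAC-seq peak with no HPC peak over it ends 12 bp before its start. The peak, chr14:47010356-47010457 on the minus strand, is shown because it is the region of open chromatin at a ligand gene that was lost from the HPC list. It holds neither of the SMAD motifs searched, GGCGCC (bound by BMP SMADs) and GTCT or its complement AGAC (the core SMAD element), which are printed in capitals in the sequences here, so it has no capitals.
Bmp4 peak: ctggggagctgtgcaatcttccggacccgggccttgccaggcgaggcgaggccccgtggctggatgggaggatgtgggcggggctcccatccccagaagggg

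Tgfb1 and Tgfb2 both rose into mesoderm but took opposite courses towards HPCs. Tgfb1 was at 0.115 and 0.128 CPM in mESCs, 2.91, 2.101 and 2.20 CPM in mesoderm and 11.4, 20.9, 19.5 and 12.3 CPM in HPCs. No library overlapped with those of another stage, and both steps were called (4.26 ± 0.39, adjusted p = 8.91e-05, and 2.76 ± 0.28, adjusted p = 4.86e-05, edgeR). Tgfb2, by contrast, was at 0.480 and 0.265 CPM in mESCs, 13.97, 18.9 and 10.6 CPM in mesoderm and 0, 0.0833, 2.66 and 0.768 CPM in HPCs. It rose by 5.24 ± 0.90 (adjusted p = 0.00171, edgeR) and then changed by -4.00 ± 0.72 (0.00166) on the log2 scale. Both encode TGF-beta dimers that act through TGFBR2 and TGFBR1, and TGF-beta2 needs the co-receptor TGFBR3 for high-affinity binding. Tgfb1 lies at chr7:26472020-26490096 (plus strand), with no ATAC-seq peak within 1 kb of its start at either stage but a CTCF peak of 416B cells, a hematopoietic progenitor line, from -354 to -17 bp of it. Tgfb2 lies at chr1:188446670-188529868 (minus strand). Its mesoderm peak, chr1:188529946-188530113 on the minus strand, -245 to -78 bp from the start, had no HPC peak over it, holds 3 copies of GTCT or AGAC and is shown as the counterpart to Tgfb1.
Tgfb2 peak: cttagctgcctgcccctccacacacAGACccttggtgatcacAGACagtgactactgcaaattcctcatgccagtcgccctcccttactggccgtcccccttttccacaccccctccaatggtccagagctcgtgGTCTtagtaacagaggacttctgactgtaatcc

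The Nodal-class ligands were mESC genes. Nodal, the ligand that maintains the epiblast and induces mesendoderm, was at 1.70 and 1.71 CPM in mESCs, 0.121, 0.240 and 0.406 CPM in mesoderm and 0 in all 4 HPC libraries. It fell at the first step (-2.60 ± 0.46, adjusted p = 0.00429, edgeR), a call lost without either mESC library, and was at least 3.95-fold lower in HPCs than in mesoderm, on 12 mesoderm counts. Gdf3, a Nodal-related ligand of pluripotent cells, was at 1.73 and 1.80 CPM in mESCs and at 0 in every wild-type mesoderm and HPC library, at least 24.6-fold lower in mesoderm. Inhbb, which encodes the activin B subunit, was at 0.147 and 0.304 CPM in mESCs and at 0 in the same 7 libraries, at least 2.86-fold lower in mesoderm, and this call was lost when any 1 library was left out (adjusted p = 0.0764 to 0.202, edgeR). Inhba, the activin A subunit gene, and Tgfb3 had at most 1 count in a wild-type mesoderm library and were not tested.

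Of the 11 receptors and co-receptors, 5 rose and 1 fell on entry into mesoderm, where 10.7% and 13.7% of all genes did, and 7 fell and 0 rose towards HPCs, against 12.5% and 10.8%. Tgfbr2, the type II receptor that binds TGF-beta, was at 0.448 and 0.304 CPM in mESCs, 1.94, 2.101 and 11.5 CPM in mesoderm and 1.58, 3.66, 3.26 and 2.18 CPM in HPCs. Tgfbr3, the co-receptor betaglycan, was at 0.388 and 0.373 CPM in mESCs, 1.70, 5.58 and 12.6 CPM in mesoderm and 9.17, 8.74, 15.0 and 8.32 CPM in HPCs. Both rose into mesoderm (3.79 ± 0.74 and 4.15 ± 0.65, adjusted p = 0.0035 and 0.00105, edgeR; the former lost its call without the second mESC library) and neither was called at the second step, where mesoderm and HPC libraries overlapped. For both genes the B9.3 mesoderm library was the highest, and the sum of 7 endothelial markers (Cdh5, Pecam1, Tek, Esam, Emcn, Tie1 and Egfl7) ran the same way over the clones at 3.04, 12.01 and 90.7 CPM, a link that was not tested. Tgfbr1, the type I receptor of TGF-beta, was the steadiest of the 3 at 3.87 and 2.90 CPM in mESCs, 5.22, 5.16 and 7.60 CPM in mesoderm and 7.79, 10.3, 4.21 and 5.76 CPM in HPCs. Only its rise from mESCs to HPCs was called (1.05 ± 0.34, adjusted p = 0.0239, edgeR), and it turned to -0.25 without TMM factors. The call was also lost without either mESC library and without the C6.1 or the C8.1 HPC library.

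The BMP receptors fell towards HPCs. Bmpr2, the type II BMP receptor, was at 4.36 and 3.77 CPM in mESCs, 12.4, 12.01 and 17.3 CPM in mesoderm and 3.55, 4.41, 6.70 and 3.46 CPM in HPCs. It rose and fell without overlap between mesoderm and the other stages (1.77 ± 0.31, adjusted p = 0.00192, then -1.61 ± 0.26, adjusted p = 0.000827, edgeR). Bmpr1a, the main type I BMP receptor of early mesoderm, was at 7.51 and 6.60 CPM in mESCs, 12.5, 12.01 and 7.08 CPM in mesoderm and 3.85, 3.498, 3.95 and 1.54 CPM in HPCs. Its mESC and mesoderm libraries overlapped, and it fell at the second step (-1.69 ± 0.30, adjusted p = 0.00166, edgeR). Bmpr1b, a second type I BMP receptor, was at 1.11 and 0.579 CPM in mESCs, 0.607, 0.480 and 0.812 CPM in mesoderm and 0, 0.0833, 0.0859 and 0 CPM in HPCs, where 2 counts stood against 27 in mesoderm (ratio 13.3, counting interval 3.35 to 116). Acvr1, which encodes the type I receptor ALK2, was at 1.67 and 0.971 CPM in mESCs, 3.04, 3.60 and 4.41 CPM in mesoderm and 0.296, 1.08, 1.46 and 1.02 CPM in HPCs. It was called at both steps (1.48 ± 0.41 and -1.93 ± 0.39, adjusted p = 0.0211 and 0.00371, edgeR), although the first lost its call with the mESC libraries summed and turned to -0.19 without TMM factors.

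Of the activin and Nodal receptors, Acvr2a and Acvr2b were called lower at the second step alone and Acvr1b higher at the first alone. Acvr2b, a type II receptor for activin and Nodal, was at 7.92 and 8.33 CPM in mESCs, 20.8, 14.9 and 10.5 CPM in mesoderm and 2.47, 2.67, 2.49 and 3.20 CPM in HPCs. Its mesoderm libraries lay above all others, the first step stayed under the fold limit (0.91 ± 0.27, adjusted p = 0.0302, edgeR), and its fall at the second had the smallest adjusted p of all members (-2.51 ± 0.25, adjusted p = 3.92e-05). Acvr2a, its paralogue, was at 2.50 and 1.80 CPM in mESCs, 4.13, 2.34 and 4.06 CPM in mesoderm and 1.08, 1.83, 1.80 and 0.896 CPM in HPCs, with a call at the second step alone (-1.28 ± 0.33, adjusted p = 0.013, edgeR). Acvr2a overlaps Orc4 on the opposite strand, and the strand setting of the counting is not given in the sources used here, so reads of the pair cannot be told apart. Acvr1b, the type I receptor ALK4 of activin and Nodal, was at 2.57 and 2.22 CPM in mESCs, 4.37, 6.96 and 4.24 CPM in mesoderm and 2.96, 1.92, 3.44 and 2.82 CPM in HPCs. Its rise (1.12 ± 0.30, adjusted p = 0.0187, edgeR) lost its call with the mESC libraries summed and turned to -0.56 without TMM factors, and its second step stayed under the fold limit (-0.91 ± 0.27, adjusted p = 0.0247).

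Tdgf1, which encodes the Nodal co-receptor Cripto (chr9:110842111-110848662, minus strand), was at 9.08 and 10.04 CPM in mESCs, 0.972, 0.120 and 0.290 CPM in wild-type mesoderm and 0 in all 4 wild-type HPC libraries. It fell at both steps, by 4.65 ± 0.54 on the log2 scale at the first (adjusted p = 0.000577, edgeR) and at least 4.94-fold at the second, on 15 mesoderm counts. It thus followed Nodal and Gdf3 rather than the kinase receptors.

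Of the 8 SMADs, 7 were tested: 5 rose into mesoderm, where 10.7% of all genes did, and 3 fell towards HPCs, against 12.5%. Of the 5 rises, those of Smad3, Smad4 and Smad5 turned direction without TMM factors, and these and that of Smad1 lost their calls with the mESC libraries summed. The BMP-branch Smad1 was at 2.11 and 1.83 CPM in mESCs, 11.3, 8.104 and 5.11 CPM in mesoderm and 0.197, 0.333, 1.37 and 0.896 CPM in HPCs. It rose by 2.03 ± 0.47 (adjusted p = 0.00896, edgeR) and fell by 3.53 ± 0.47 (adjusted p = 0.000238) on the log2 scale, below its mESC level (-1.503 ± 0.50, adjusted p = 0.027). Smad1 lost this last call without either mESC library and without the C6.1 or the C8.1 HPC library. Its paralogue Smad5 was at 2.25 and 2.28 CPM in mESCs, 3.64, 3.72 and 7.66 CPM in mesoderm and 3.35, 4.91, 5.15 and 4.23 CPM in HPCs. It was not called at the second step (-0.20 ± 0.29, adjusted p = 0.666, edgeR), and its rise (1.16 ± 0.34, adjusted p = 0.0257) turned to -0.46 without TMM factors. Per kilobase of span, Smad5 stood at 0.112 CPM and Smad1 at 0.0115 CPM in wild-type HPCs. Smad9, the third SMAD of this branch, was at 0.00546 and 0.0196 CPM in mESCs and 0.850, 1.08 and 0.174 CPM in mesoderm and had 1 count in all wild-type HPC libraries.

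Like Smad5, the SMADs of the Nodal and TGF-beta branch and the shared Smad4 varied less than Smad1. Smad2 was at 7.37 and 6.86 CPM in mESCs, 8.14, 8.70 and 9.52 CPM in mesoderm and 9.57, 7.33, 9.62 and 5.12 CPM in HPCs, with no call in any comparison. Smad3 was at 2.75 and 2.23 CPM in mESCs, 4.74, 7.98 and 6.61 CPM in mesoderm and 2.96, 4.83, 3.35 and 2.69 CPM in HPCs. It rose into mesoderm (1.38 ± 0.30, adjusted p = 0.00676, edgeR; -0.27 without TMM factors), and its second step stayed under the fold limit (-0.90 ± 0.26, adjusted p = 0.0233). Smad4, the partner of all receptor SMADs, was at 6.25 and 5.54 CPM in mESCs, 10.8, 12.9 and 12.2 CPM in mesoderm and 5.92, 7.83, 5.58 and 6.02 CPM in HPCs. Its rise was just past the fold limit (1.02 ± 0.22, adjusted p = 0.00672, edgeR; -0.66 without TMM factors), and its later decline just short of it (-0.92 ± 0.19, adjusted p = 0.00381).

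Both inhibitory SMADs fell towards HPCs, but only Smad6 had risen before. Smad6, which blocks BMP receptors, was at 1.38 and 1.13 CPM in mESCs, 16.9, 25.3 and 6.90 CPM in mesoderm and 3.95, 2.83, 3.52 and 5.38 CPM in HPCs. The 3 stages did not overlap, and Smad6 rose by 3.69 ± 0.49 (adjusted p = 0.000442, edgeR), then fell by 2.07 ± 0.38 (adjusted p = 0.00177) on the log2 scale. It stayed above mESCs (1.62 ± 0.45, adjusted p = 0.0116, edgeR), a call lost without either mESC library. Smad7, which blocks receptors of both branches, was at 11.0 and 9.78 CPM in mESCs, 13.97, 19.3 and 7.95 CPM in mesoderm and 2.37, 1.499, 3.52 and 4.87 CPM in HPCs. It was not called at the first step (0.39 ± 0.41, adjusted p = 0.508, edgeR; -1.33 without TMM factors) and fell at the second (-2.19 ± 0.37, adjusted p = 0.00121). Smad6 lies at chr9:63800882-63869866 (minus strand), and it had 2 mesoderm ATAC-seq peaks and no HPC peak near its start. The central 300 bases of the upstream peak, chr9:63870738-63871037 on the minus strand, -1171 to -872 bp from the start, are shown because they hold 1 copy of GGCGCC (capitals) at an inhibitory SMAD gene that rose and fell over the 2 steps.
Smad6 peak: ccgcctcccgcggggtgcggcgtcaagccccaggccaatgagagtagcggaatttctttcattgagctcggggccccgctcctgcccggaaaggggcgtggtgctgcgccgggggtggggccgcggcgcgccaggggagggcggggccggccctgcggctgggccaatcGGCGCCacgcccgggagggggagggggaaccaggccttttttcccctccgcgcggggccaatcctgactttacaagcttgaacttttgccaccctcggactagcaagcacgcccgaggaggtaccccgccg

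Of the 6 secreted inhibitors, Lefty1 and Lefty2 fell into mesoderm and 0 rose at either step. Lefty1 was at 4.17 and 1.87 CPM in mESCs, 0, 0.0600 and 0.174 CPM in mesoderm and 0 in all HPC libraries, and Lefty2 at 2.23 and 1.66 CPM, 0, 0.0600 and 0.232 CPM, and 0. Both encode antagonists of Nodal and its co-receptor, and both fell with Nodal (-4.98 ± 0.68 and -4.03 ± 0.63, adjusted p = 0.00125 and 0.00234, edgeR). They lie 35.9 kb apart on chromosome 1 and are near-identical copies, so reads could have been split between them. Chrd, the BMP antagonist chordin, had 43 mESC counts, 1 in wild-type mesoderm and 0 in wild-type HPCs, at least 2.09-fold lower in HPCs than in mESCs. Fst, the activin antagonist follistatin, was at 0.0873 and 0.147 CPM in mESCs, 0.972, 0.120 and 0.0580 CPM in mesoderm and 0 in wild-type HPCs, with no call in wild type. Nog, which encodes noggin, reached 0.243 CPM in 1 wild-type mesoderm library and was not tested. Noggin, chordin and gremlin, the extracellular BMP antagonists, thus reached at most 0.281 CPM in any library.

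Among the membrane and intracellular inhibitors, Bambi and Smurf1 rose into mesoderm, Skil fell, and all 3 fell towards HPCs. Bambi, which encodes a kinase-less pseudoreceptor, was at 0.328 and 0.284 CPM in mESCs, 1.82, 1.38 and 2.55 CPM in mesoderm and 0.493, 0.167, 0.344 and 0.128 CPM in HPCs (2.63 ± 0.42 and -2.73 ± 0.45, adjusted p = 0.00118 and 0.000936, edgeR). Smurf1, a ubiquitin ligase for BMP-branch SMADs, was at 2.87 and 2.88 CPM in mESCs, 5.10, 9.06 and 9.23 CPM in mesoderm and 1.68, 2.08, 3.78 and 1.79 CPM in HPCs. Its rise (1.45 ± 0.35, adjusted p = 0.011, edgeR) lost its call with the mESC libraries summed and turned to -0.17 without TMM factors, and its fall was called under both scalings (-1.74 ± 0.31, adjusted p = 0.0016). Its relative Smurf2 was at 5.10 and 4.03 CPM in mESCs, 6.80, 8.40 and 10.7 CPM in mesoderm and 6.90, 9.16, 7.65 and 5.51 CPM in HPCs, with no call at either step. Skil, which encodes the SMAD co-repressor SnoN, was at 29.9 and 25.7 CPM in mESCs, 11.7, 7.44 and 11.1 CPM in mesoderm and 3.65, 5.25, 4.81 and 4.74 CPM in HPCs. The stages did not overlap (-1.48 ± 0.24 and -1.12 ± 0.22, adjusted p = 0.00136 and 0.00284, edgeR).

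The ID targets encode dominant-negative partners of bHLH factors, and Id1, Id2 and Id3 had their lowest wild-type means in HPCs. Id1 was at 0.890 and 0.952 CPM in mESCs, 1.34, 1.68 and 1.33 CPM in mesoderm and 0.197, 0.0833, 0 and 0.128 CPM in HPCs. The first step was not called (0.66 ± 0.38, adjusted p = 0.213, edgeR), whereas Id1 fell at the second (-3.88 ± 0.53, adjusted p = 0.00032) on 62 mesoderm and 4 HPC counts. Id3 was at 0.251 and 0.226 CPM in mESCs, 2.31, 1.98 and 2.20 CPM in mesoderm and 0.0986, 0, 0 and 0 CPM in HPCs. It rose by 3.15 ± 0.41 (adjusted p = 0.000362, edgeR) on the log2 scale, and its 90 mesoderm counts stood against 1 HPC count (ratio 88.9, counting interval 15.5 to 3549). Id2 was at 0.846 and 0.775 CPM in mESCs, 0.729, 0.180 and 0.638 CPM in mesoderm and 0, 0.333, 0 and 0.256 CPM in HPCs. Its fall was called only between mESCs and HPCs (-2.47 ± 0.74, adjusted p = 0.0167, edgeR), a call lost without either mESC library. Id4 had at most 1 count in any library after the mESC stage of wild type and was not tested. Id1 lies at chr2:152561986-152563146 (plus strand). Its upstream mesoderm peak, chr2:152560848-152561039 on the plus strand, -1138 to -947 bp from the start, had no HPC peak over it. It is shown because it holds 1 GGCGCC and 5 copies of GTCT or AGAC (capitals) near the classical BMP target that fell towards HPCs.
Id1 peak: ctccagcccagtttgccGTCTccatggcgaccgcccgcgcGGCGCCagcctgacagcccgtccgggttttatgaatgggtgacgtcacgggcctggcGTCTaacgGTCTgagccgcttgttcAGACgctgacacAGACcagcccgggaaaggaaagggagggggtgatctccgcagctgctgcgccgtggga

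**Figure D3:**
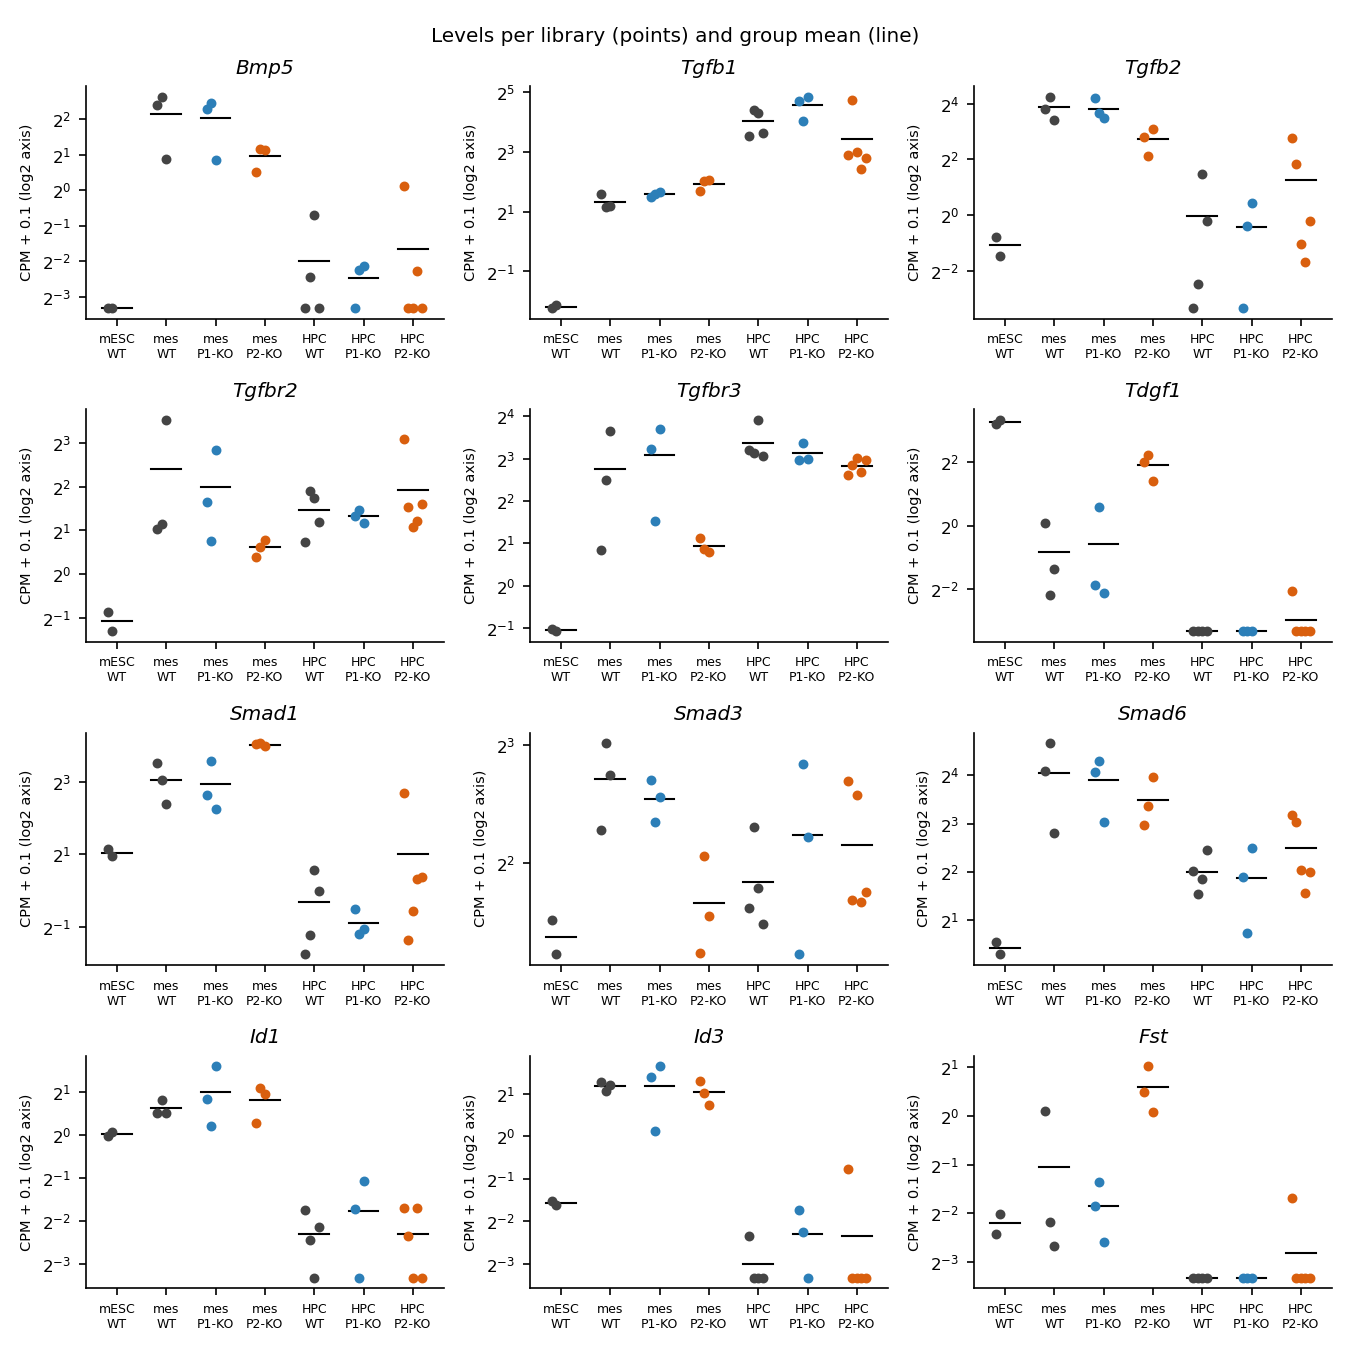
Level (y axis, CPM + 0.1 on a log2 axis) of 12 members in each library (points) with the group mean (line), by stage and genotype (black wild type, blue P1-CTCF-KO, orange P2-CTCF-KO; mes, mesoderm). Tgfb1 is higher in every HPC library than in every mesoderm library, Id3 and Bmp5 are higher in every mesoderm library than in every HPC library, and Tdgf1 and Fst lie higher in the 3 P2-CTCF-KO mesoderm libraries (2.59 to 4.61 and 0.962 to 1.93 CPM) than in most wild-type ones, a difference not called by edgeR.

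The comparison between genotypes asked whether loss of a CTCF site at Runx1 went along with a change in these pathway genes. In mesoderm, 0 of 33 members tested were called between P2-CTCF-KO and wild type by edgeR, against 0% higher and 0.0342% lower of all 8778 genes. At an unadjusted p under 0.05 there were 12 members and 1408 genes. The largest difference was that of Tdgf1, at 3.94, 4.61 and 2.59 CPM in the P2-CTCF-KO clones D2.1, D10.1 and E9.1 against 0.972, 0.120 and 0.290 CPM in wild type and 0.176, 1.40 and 0.131 CPM in the P1-CTCF-KO clones E7.1, E7.2 and E9.1. The P2-CTCF-KO libraries lay above all others (3.28 ± 0.80 on the log2 scale, adjusted p = 0.135, edgeR), and DESeq2 called the difference (3.14, adjusted p = 0.0188). Fst stood at 1.31, 1.93 and 0.962 CPM in P2-CTCF-KO and, as given above, at 0.0580 to 0.972 CPM in wild type, with an overlap at clone C6.1 (2.28 ± 0.76, adjusted p = 0.196, edgeR). Without that C6.1 library Fst was called (3.91, adjusted p = 0.0337), and so was Smurf1 (-1.02, adjusted p = 0.0294), whose P2-CTCF-KO values were 4.78, 4.20 and 4.22 CPM. Nodal, the ligand that binds Cripto, stood at 0.469, 0.757 and 0.666 CPM in P2-CTCF-KO, 0.121 to 0.406 CPM in wild type and 0.235 to 0.459 CPM in P1-CTCF-KO mesoderm. It was too low to be tested, and its P2-CTCF-KO libraries also lay above the others.

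In the SMADs of P2-CTCF-KO mesoderm, Smad1 was at 16.1, 16.5 and 15.5 CPM against 5.11 to 11.3 CPM in wild type (1.02 ± 0.34, adjusted p = 0.2, edgeR), and Smad3 at 2.25, 4.06 and 2.81 CPM against 4.74 to 7.98 CPM (-1.06 ± 0.26, adjusted p = 0.135). Neither gene overlapped between these genotypes, and DESeq2 called Smad3 (-1.08, adjusted p = 0.0406). Of the TGF-beta ligands and receptors, Tgfb2 was at 6.94, 4.20 and 8.37 CPM against 10.6 to 18.9 CPM (-1.13 ± 0.29, adjusted p = 0.138, edgeR; -1.15, adjusted p = 0.0362 with DESeq2). Tgfbr2 was at 1.22, 1.45 and 1.63 CPM against 1.94 to 11.5 CPM, and Tgfbr3 at 2.06, 1.72 and 1.63 CPM against 1.70 to 12.6 CPM (-1.86 ± 0.74 and -1.90 ± 0.67, adjusted p = 0.255 and 0.212, edgeR). With no filter on low counts, 7 members were called: Tdgf1, Smad1 and Fst higher and Tgfb2, Tgfbr2, Tgfbr3 and Smad3 lower in P2-CTCF-KO. The share of all genes called under this setting is not given here, so no excess of members is claimed. All 7 endothelial markers were in the table, and their sum was 1.59, 0.757 and 1.26 CPM in P2-CTCF-KO mesoderm, with Emcn at 0, against 3.04 to 90.7 CPM in wild type and 6.50 to 56.8 CPM in P1-CTCF-KO. The 9 mesoderm markers summed to 74.6 to 111 CPM against 33.4 to 58.8 CPM in wild type, and Gata4, which held most of the sum of 7 cardiac markers, stood at 16.5, 12.8 and 12.7 CPM against 8.02, 8.64 and 2.38 CPM, while Nkx2-5, Myl7, Myh6 and Tnnt2 were at most at 0.290 CPM. The 9 hematopoietic markers summed to 4.54 to 10.8 CPM against 10.4 to 24.9 CPM. The part of this shift in the Tgfbr2, Tgfbr3, Tgfb2, Tdgf1 and Smad1 values was not tested.

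P1-CTCF-KO mesoderm gave 0 calls of 33 members against wild type by edgeR (0% of all genes in either direction), with 0 members and 168 genes at an unadjusted p under 0.05, and DESeq2 called 0. Its log2 fold changes lay between -0.63 and 0.70. P2-CTCF-KO against P1-CTCF-KO mesoderm gave 0 calls (0% in either direction), with 7 members and 987 genes at an unadjusted p under 0.05, 0 calls by DESeq2 and 5 with no filter on low counts. The differences with the smallest p were those of Fst, Tgfb2 and Tdgf1 (2.87 ± 0.74, -1.07 ± 0.29 and 2.58 ± 0.70, each at adjusted p = 0.236, edgeR). The P2-CTCF-KO differences from wild type of Tgfb1 and Id3, which were called at both wild-type steps, were 0.67 ± 0.22 and -0.13 ± 0.38 on the log2 scale.

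In HPCs, only 21 of the 45 members had enough counts to be tested between genotypes, among them 2 ligands, 0 secreted inhibitors and 0 ID genes. By edgeR 0 were called for P2-CTCF-KO against wild type (0% of all 7422 genes in either direction), 0 for P1-CTCF-KO against wild type (0%) and 0 for P2-CTCF-KO against P1-CTCF-KO (0%), and at an unadjusted p under 0.05 there were 1, 0 and 1 members among 145, 260 and 650 genes. DESeq2 called 0 in each of the 3. Tgfb1 was at 11.4 to 20.9 CPM in wild type, at 25.5, 16.1 and 28.6 CPM in P1-CTCF-KO and at 7.40, 26.3, 7.79, 5.28 and 6.84 CPM in P2-CTCF-KO. The P2-CTCF-KO values are those of the first D2.1, first D10.1, second D10.1, second D2.1 and the E9.1 library. The 2 libraries of clone D10.1 thus differed from each other more than the other P2-CTCF-KO libraries did. Without the higher one, Tgfb1 was called lower in P2-CTCF-KO than in P1-CTCF-KO (-1.79, adjusted p = 0.0347, against -1.14 ± 0.47 and adjusted p = 0.527 with it, edgeR). That library also had the highest sum of hematopoietic markers of its group, 267 CPM against 78.2 to 122 CPM, whose part was not tested.

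From mesoderm to HPCs, 16 of 30 members tested fell and 1 rose in P1-CTCF-KO, against 16.1% and 16.6% of all genes, and 12 fell and 2 rose in P2-CTCF-KO, against 11.7% and 16.5%. Their median log2 fold changes were -1.88 and -1.06, against -0.07 and 0.09 for all genes. Without TMM factors 20 members were lower and 1 higher in P1-CTCF-KO, against 1815 and 1015 of all 9119 genes. In P2-CTCF-KO 9 members were then lower and 3 higher, against 542 and 2495 genes. Bmp4, Bmp5, Bmp7, Bmpr1a, Acvr2b, Tdgf1, Smad1, Smad7, Bambi, Id1 and Id3 fell in all 3 genotypes, and Tgfb1 rose in all 3, a call that in P2-CTCF-KO was lost without the first D10.1 HPC library (0.86, under the fold limit). The first HPC library of clone D2.1 stood apart from the other 4 of P2-CTCF-KO: it was the highest of the 5 for 26 of the 41 members with counts. Its endothelial markers summed to 68.5 CPM (the others 10.5 to 28.3), its mesoderm markers to 20.5 CPM (4.01 to 10.6), of which Kdr held 18.1 CPM, its smooth muscle markers to 9.56 CPM (0.528 to 5.04), its hematopoietic markers to 78.2 CPM (81.1 to 267) and its Ter119-lineage genes to 15.0 CPM (51.5 to 140). Without it, 20 members fell and 2 rose in P2-CTCF-KO, so leaving out this 1 library added the fall of 8 genes: Bmp2, Bmp6, Tgfb2, Bmpr2, Acvr1, Smad6, Smurf1 and Skil. The fall of Skil was also called without the D10.1 mesoderm library and without the first D10.1 HPC library.

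**Figure D4:**
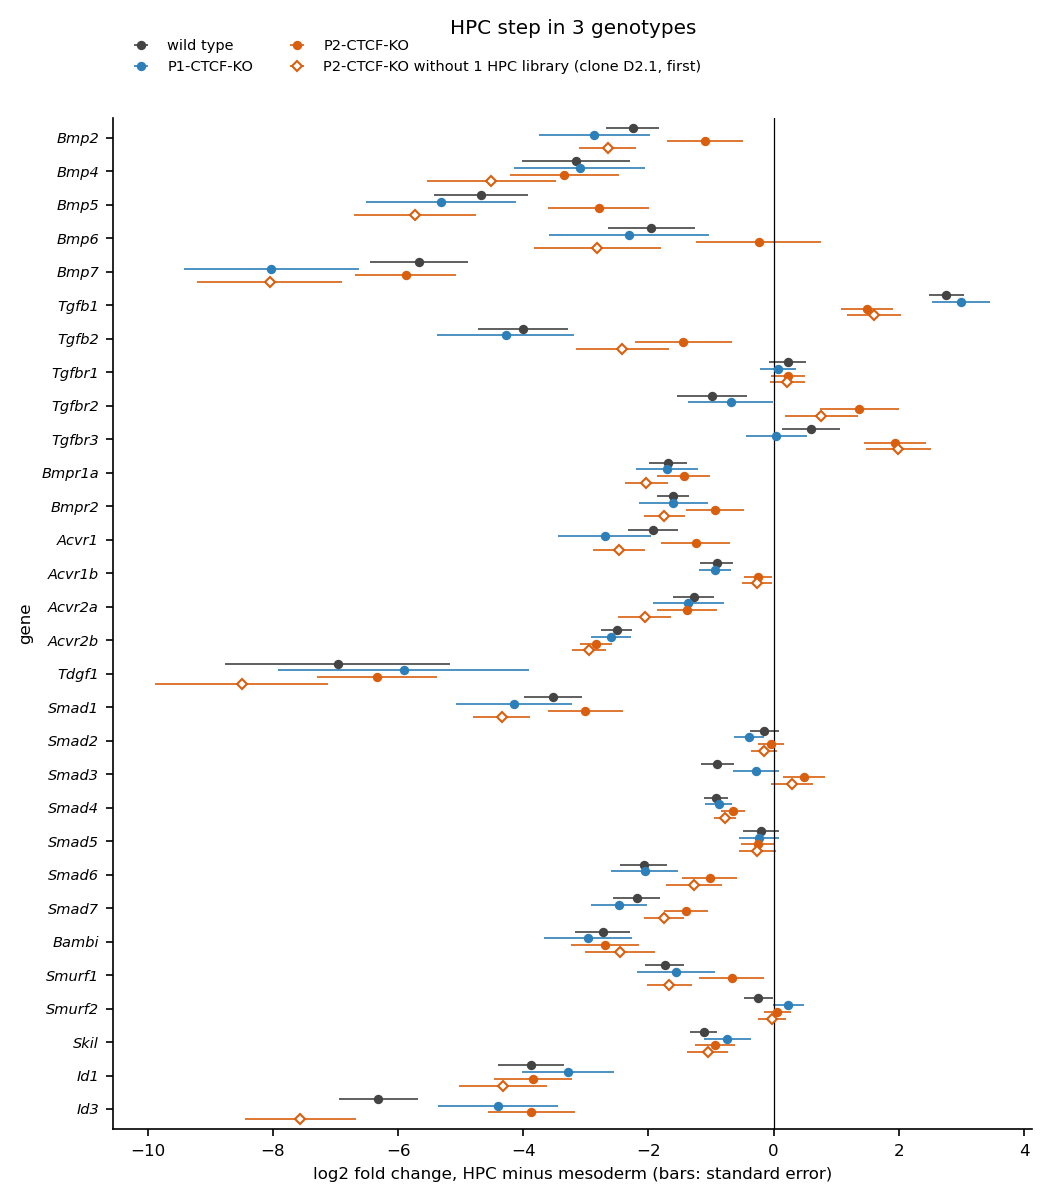
Log2 fold change from mesoderm to HPCs (x axis, bars: standard error) of the 30 members tested in all 3 genotypes (y axis), for P1-CTCF-KO, P2-CTCF-KO and wild-type cells, and for P2-CTCF-KO without the first HPC library of clone D2.1 (open diamonds). Tgfb1 lies right of 0 in every genotype (2.996 in P1-CTCF-KO, 1.495 in P2-CTCF-KO and 2.76 in wild type). Leaving out that 1 library moves Bmp5 from -2.80 to -5.73 and Id3 from -3.87 to -7.56 in P2-CTCF-KO.

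Of the ligands, Bmp4, Bmp5 and Bmp7 fell in both knockouts, and Bmp2 and Tgfb2 in P1-CTCF-KO. Bmp4 was at 1.41, 2.43 and 0.918 CPM in P1-CTCF-KO mesoderm and 0, 0.224 and 0.253 CPM in its HPCs, and at 1.31, 0.551 and 2.22 CPM in P2-CTCF-KO mesoderm and 0.349, 0.194, 0, 0 and 0 CPM in its HPCs. Bmp5 was at 4.81, 5.35 and 1.70 CPM and then 0, 0.112 and 0.127 CPM in P1-CTCF-KO, and at 1.31, 2.13 and 2.07 CPM and then 0.977, 0, 0, 0.106 and 0 CPM in P2-CTCF-KO. Bmp7 was at 2.70, 4.08 and 1.18 CPM and then 0 in all 3 P1-CTCF-KO libraries, at least 20.9-fold lower, and at 1.13, 3.51 and 3.41 CPM and then 0.140, 0, 0, 0 and 0 CPM in P2-CTCF-KO. None of the 3 ligands overlapped between the stages in either knockout. Bmp2 was at 1.94, 1.32 and 1.90 CPM and then 0.203, 0.336 and 0.127 CPM in P1-CTCF-KO, and at 1.41, 1.51 and 1.48 CPM and then 2.23, 0, 0.288, 0.317 and 0.326 CPM in P2-CTCF-KO. Tgfb2 was at 18.0, 12.5 and 11.1 CPM and then 0, 0.671 and 1.27 CPM in P1-CTCF-KO, and at 6.94, 4.20 and 8.37 CPM and then 6.70, 3.49, 0.385, 0.211 and 0.760 CPM in P2-CTCF-KO. For both of these, the first D2.1 HPC library lay within or above the mesoderm range, and the fall was called in P1-CTCF-KO (-2.86 ± 0.88 and -4.28 ± 1.09, adjusted p = 0.0153 and 0.00484, edgeR) and not in P2-CTCF-KO (-1.09 ± 0.61 and -1.44 ± 0.78, adjusted p = 0.166 and 0.152). Tgfb1 was at 2.70, 2.92 and 3.08 CPM in P1-CTCF-KO and 3.10, 3.92 and 4.07 CPM in P2-CTCF-KO mesoderm, below all HPC values given above.

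Among the receptors, Acvr2b was at 19.3, 17.7 and 14.2 CPM in P1-CTCF-KO mesoderm and 1.82, 3.47 and 3.04 CPM in its HPCs, and at 17.6, 20.5 and 23.3 CPM and then 3.70, 1.94, 3.94, 2.96 and 1.85 CPM in P2-CTCF-KO. Its fall had the smallest adjusted p of all members in both knockouts (-2.60 ± 0.32, 9.29e-06, and -2.84 ± 0.26, 6.57e-07, edgeR). Bmpr1a was at 11.9, 11.5 and 9.57 CPM and then 2.03, 5.37 and 2.53 CPM in P1-CTCF-KO, and at 8.91, 7.23 and 10.07 CPM and then 7.26, 2.04, 3.46, 1.90 and 1.19 CPM in P2-CTCF-KO. It overlapped in P2-CTCF-KO through the first D2.1 library alone. Bmpr2 was at 15.6, 10.7 and 15.0 CPM and then 2.84, 7.16 and 3.42 CPM in P1-CTCF-KO, and at 9.75, 7.37 and 11.2 CPM and then 12.9, 2.23, 4.81, 2.11 and 2.17 CPM in P2-CTCF-KO. Acvr1 was at 4.17, 3.58 and 3.08 CPM and then 0.406, 0.224 and 1.01 CPM in P1-CTCF-KO, and at 2.16, 2.62 and 3.18 CPM and then 3.35, 0.485, 0.769, 0.423 and 0.217 CPM in P2-CTCF-KO. Both fell in P1-CTCF-KO (-1.61 ± 0.55 and -2.70 ± 0.75, adjusted p = 0.0262 and 0.0079, edgeR), and in P2-CTCF-KO the first D2.1 library lay above the mesoderm values of either gene. Acvr2a was at 3.19, 3.51 and 3.70 CPM and then 3.07, 0.679, 0.673, 1.16 and 0.869 CPM in P2-CTCF-KO, with a call (-1.38 ± 0.47, adjusted p = 0.0275, edgeR) that was lost when any of 6 libraries was left out (adjusted p up to 0.0769). Tdgf1 was at 0.176, 1.40 and 0.131 CPM and then 0 in all P1-CTCF-KO HPCs, and at 3.94, 4.61 and 2.59 CPM and then 0.140, 0, 0, 0 and 0 CPM in P2-CTCF-KO, where 144 mesoderm counts stood against 2 (ratio 99.96, counting interval 27.2 to 833).

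Tgfbr3 was the other member that rose towards HPCs in P2-CTCF-KO, from 2.06, 1.72 and 1.63 CPM to 6.07, 7.17, 7.98, 6.34 and 7.71 CPM with no overlap (1.94 ± 0.50, adjusted p = 0.00489, edgeR). In P1-CTCF-KO it stood at 9.33, 2.80 and 12.9 CPM and then 7.71, 10.3 and 7.86 CPM (0.05 ± 0.49, adjusted p = 0.955). A difference in response between genotypes was tested as the knockout effect in HPCs minus that in mesoderm. By edgeR 0 of 30 members were called for P2-CTCF-KO (0.0218% of all 9170 genes higher, 0% lower) and 0 for P1-CTCF-KO (0% in either direction), with 4 and 0 members among 643 and 306 genes at an unadjusted p under 0.05 and 0 calls by DESeq2. Those with the smallest p in P2-CTCF-KO included Smad3 at 1.41 ± 0.48 (adjusted p = 0.426, edgeR), Tgfbr2 at 2.37 ± 0.87 (adjusted p = 0.478) and Tgfbr3 at 1.36 ± 0.66 (adjusted p = 0.713). The rise of Tgfbr3 was therefore not shown to differ between genotypes.

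Of the SMADs in the knockouts, Smad1 was at 6.11, 11.7 and 4.65 CPM in P1-CTCF-KO mesoderm and 0.608, 0.336 and 0.380 CPM in its HPCs, and at 16.1, 16.5 and 15.5 CPM and then 6.28, 0.291, 0.577, 1.16 and 1.19 CPM in P2-CTCF-KO. Smad7 was at 15.6, 14.3 and 11.2 CPM and then 3.45, 1.90 and 2.28 CPM in P1-CTCF-KO, and at 11.1, 9.57 and 13.3 CPM and then 7.89, 3.10, 3.08, 3.91 and 3.48 CPM in P2-CTCF-KO. Both genes fell with no overlap in either knockout (Smad1 -4.15 ± 0.92 and -3.01 ± 0.60, Smad7 -2.47 ± 0.44 and -1.40 ± 0.35). Smad6 was at 16.6, 19.6 and 8.13 CPM and then 3.65, 1.57 and 5.58 CPM in P1-CTCF-KO (-2.06 ± 0.53, adjusted p = 0.00531, edgeR), and at 7.79, 10.3 and 15.5 CPM and then 8.93, 8.05, 4.04, 2.85 and 3.91 CPM in P2-CTCF-KO (-1.02 ± 0.44, adjusted p = 0.0738). Bambi, among the inhibitors, was at 3.35, 1.19 and 2.03 CPM and then 0.203, 0.559 and 0 CPM in P1-CTCF-KO, and at 2.44, 1.51 and 2.44 CPM and then 0.140, 0.0969, 0.192, 0.739 and 0.543 CPM in P2-CTCF-KO. Id1 was at 1.70, 1.07 and 2.95 CPM and then 0.203, 0 and 0.380 CPM in P1-CTCF-KO, and at 1.13, 2.07 and 1.85 CPM and then 0.209, 0.0969, 0, 0.211 and 0 CPM in P2-CTCF-KO. Id3 was at 2.52, 0.988 and 3.02 CPM and then 0.203, 0.112 and 0 CPM in P1-CTCF-KO, and at 2.34, 1.93 and 1.55 CPM and then 0.488, 0, 0, 0 and 0 CPM in P2-CTCF-KO. Bambi, Id1 and Id3 did not overlap between the stages in either knockout, with log2 fold changes from -4.40 to -2.69.

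A wider list of 48 further ligands, receptors and regulators of the same pathways, of which 47 were in the table and 31 tested in wild type, gave 4 higher and 5 lower genes at the first wild-type step, close to the shares of all genes (10.7% and 13.7%), and 4 higher and 15 lower at the second (all genes 10.8% and 12.5%). The strongest calls by p-value into mesoderm were Acvrl1 (4.36 ± 0.65, adjusted p = 0.00082, edgeR), the endothelial type I receptor ALK1, and Bmper (6.57 ± 1.28, adjusted p = 0.00367), a secreted BMP modulator, on the higher side, and Ltbp4 (-3.24 ± 0.36) and Bmp8a (-7.13 ± 1.17) on the lower. Towards HPCs they were Ltbp2 (8.24 ± 0.62, adjusted p = 1.52e-05, edgeR) and Ltbp1 (2.85 ± 0.46), both of the latent TGF-beta binding protein family, on the higher side, and the co-repressor gene Tgif1 (-6.13 ± 0.58) and the SMAD anchor gene Zfyve9 (-2.56 ± 0.26) on the lower. At the same step 3 genes of the list rose and 13 fell of 25 tested in P1-CTCF-KO, and 3 and 8 in P2-CTCF-KO, and between genotypes 0 were called by edgeR within either stage. Of 18 genes widely used as downstream readouts of these pathways, 16 were in the table and 14 tested, 10 of which rose and 0 fell into mesoderm, and 3 rose and 7 fell towards HPCs, against the same shares. Tal1 (1.94 ± 0.21, adjusted p = 5.97e-05, edgeR) and Runx1 (3.19 ± 0.43, adjusted p = 0.000256), both hematopoietic regulators, led the rise, and the homeobox genes Msx1 (-5.07 ± 0.84) and Msx2 (-5.38 ± 0.92) the fall. This list shares T, Eomes, Mixl1 and Hand1 with the mesoderm markers used above. It shares Tal1, Runx1 and Gata2 with the hematopoietic markers. For these genes, pathway output and cell type cannot be told apart.

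ATAC-seq peaks mark chromatin open to a transposase, and the study called 1 list per stage from merged libraries, so no replicate error attaches to them. Its methods give the cells as E14-TG2a-RV, which carry a Venus reporter at Runx1 and an mCherry transgene of the Runx1 +23 enhancer in Col1a1, whereas the labels give E14-TG2a. Within 1 kb of the annotated start, 38 of the 45 members had a mesoderm peak (84.4%, against 55.2% of 24960 genes) and 23 an HPC peak (51.1%, against 37.1%). The lists hold 76766 and 29037 peaks, so the HPC list is the shorter one for all genes. Of the 38 members with a mesoderm peak, 15 (39.5%) had none in HPCs, close to the 34.7% of all genes, and no member had an HPC peak alone. By role, those without an HPC peak were 6 of 9 ligands (Bmp2, Bmp4, Bmp5, Bmp7, Gdf3 and Tgfb2), 4 of 10 receptors, 4 of 8 SMADs, 0 of 3 secreted inhibitors, 0 of 4 membrane and intracellular inhibitors and 1 of 4 ID genes, numbers too small to set the roles apart. Nodal, Inhbb, Tgfb1, Tdgf1, Lefty1, Lefty2 and Chrd had no peak at either stage. A CTCF peak of 416B cells lay within 1 kb of 6 starts (13.3%, against 12.8% of all genes), those of Tgfb1, Tgfb3, Tgfbr3, Acvr1, Acvr2b and Nog.

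**Figure D5:**
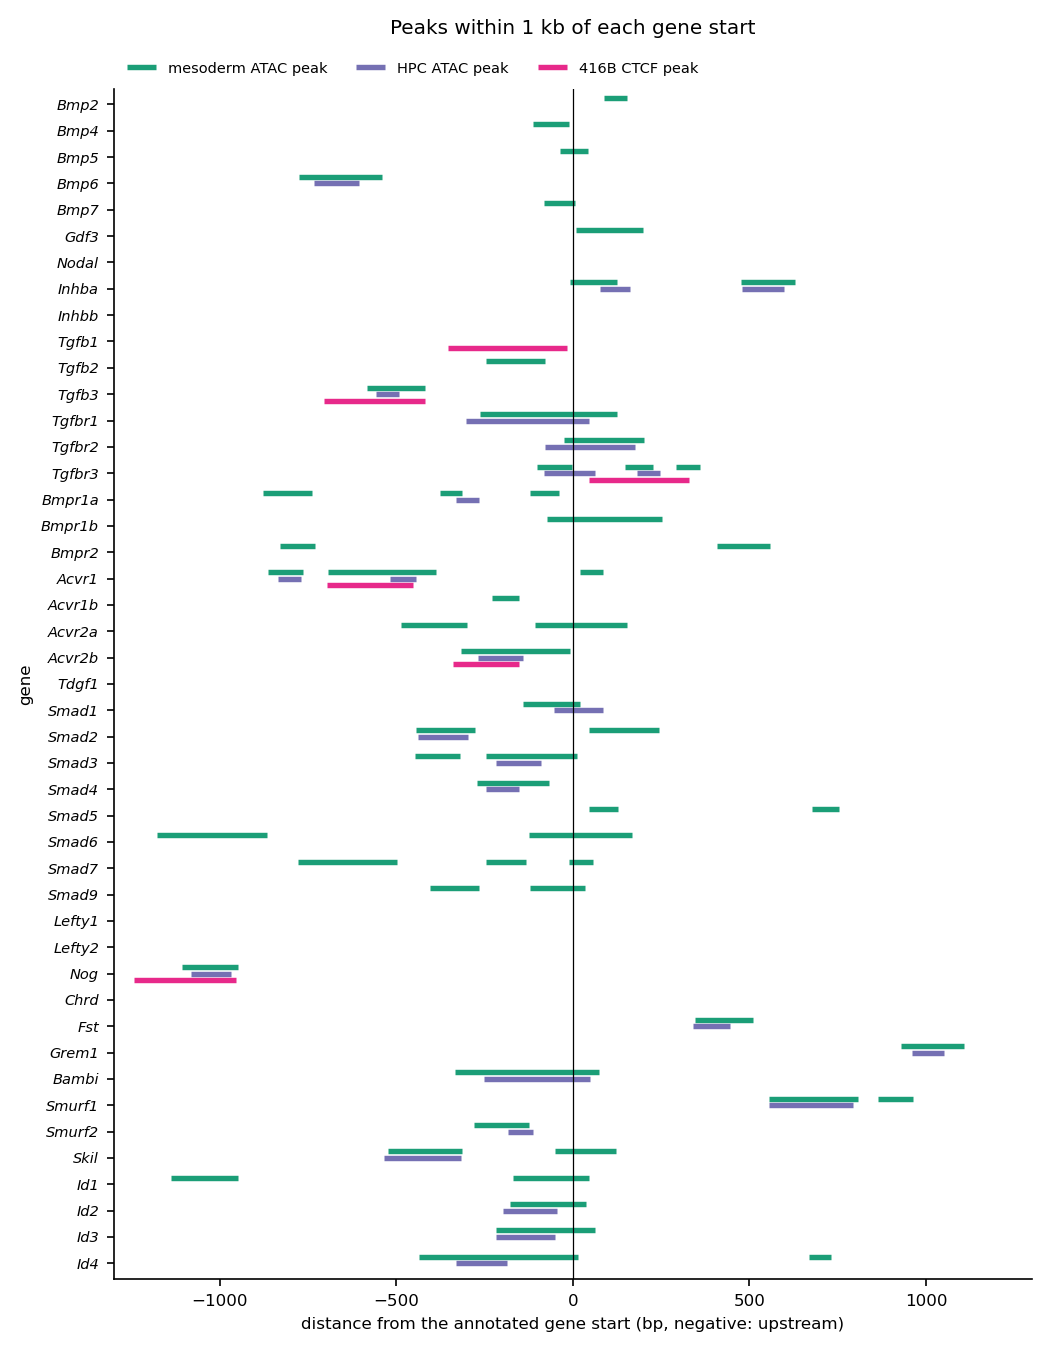
Peaks within 1 kb of each member's annotated start (x axis, distance in bp, negative upstream; y axis, members by role) in the mesoderm ATAC-seq list, the HPC ATAC-seq list and the 416B CTCF list. Mesoderm peaks flank 38 starts and HPC peaks 23, and Tgfb1, the member that rose at both steps, has a CTCF peak and no ATAC-seq peak.

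The SMAD motifs were searched on both strands in the 200 bp around each mesoderm peak centre. GGCGCC, its own reverse complement, was in 22 of the 58 member peaks (37.9%), in 17.5% of the 17805 peaks at any gene start and in 6.93% of all mesoderm peaks. GTCT or AGAC was in 74.1%, 72.6% and 79.2% of the same sets. A match describes letters and not a bound site.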

How the data were processed

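Poly(A)-minus RNA was sequenced from 23 libraries, and ATAC-seq and CTCF ChIP-seq peak lists were used as annotation. The authors mapped reads to mm9 with STAR, removed duplicates and used featureCounts to count reads in the exons and introns of a gene, and the deposited read counts are whole numbers that are not normalized. The strand setting of the counting is not given in the sources used here. The authors called peaks with MACS2 on merged libraries, for ATAC-seq from inserts under 100 bp, and the lists give positions alone. The 45 members and all other lists were chosen with earlier results of these data known.

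Counts were tested with edgeR 4.0.16 (R 4.3.3): filterByExpr (minimum count 10), TMM factors, quasi-likelihood F-tests and Benjamini-Hochberg adjustment over all genes tested. Separate fits held the wild-type stages, the mesoderm libraries, the HPC libraries, and all mesoderm and HPC libraries. A floor of 3 counts over a group replaced folds against 0, and ratios on 1 to 3 counts carry exact 95% intervals. Floors and intervals cover counting error only, and the bounds and ratios rest on the TMM scale. A member called in at least 1 comparison was named with its values in every library of it, as were Bmp4, Nodal, Tgfb1, Id1, Smad6 and Smad7, and of the wider list the 2 genes per direction with the smallest adjusted p. The study's own tool, DESeq2 1.42.0, and other scalings, filters and left-out libraries were alternatives. The 186 entries of ribosomal RNA or several loci were kept in the fits. The same clone gave mesoderm and HPC libraries, so clone numbers pair the stages, although deviations from the group means correlated at only -0.06 to 0.156 over 12543 genes. The code was tested on simulated data. Peaks were compared with the gene starts given in the table of read counts (mm9) in Python 3.11.15, and sequences were read from the mm9 genome with pysam 0.24.0. GENCODE exons served only to check that no printed sequence overlapped an exon.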

Additional observations from a re-analysis of the deposited data

Results flagged for a closer look

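The 21 members tested between HPC genotypes were examined in the wild-type and P2-CTCF-KO HPC libraries. Of these 42 groups of 4 or 5 values, 10 held a single library far from the rest, where chance flags about 1 in 20 independent groups. The members share the same libraries, so the groups are not independent and their share cannot be weighed against that rate. In the P2-CTCF-KO group, 8 of the 10 were the first library of clone D2.1, which was the highest each time. There, Tgfbr2 stood at 8.513 CPM (the other 4 at 2.02 to 2.93), Bmpr2 at 12.91 (2.11 to 4.81), Acvr1 at 3.349 (0.217 to 0.769), Acvr2a at 3.07 (0.673 to 1.16), Smad1 at 6.28 (0.291 to 1.19), Smad4 at 8.723 (5.82 to 6.65), Smad7 at 7.885 (3.08 to 3.91) and Smurf1 at 7.885 (0.739 to 2.33). The second library of the same clone is among the other 4. The markers of endothelium and mesoderm were also highest in the first D2.1 library, at 68.5 and 20.5 CPM in sum (18.1 CPM of the latter Kdr), as were those of smooth muscle (9.56 CPM against 0.528 to 5.04) and of undifferentiated cells (2.303 CPM against 0.291 to 0.978), and their part in these values was not tested.

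Tgfb1 stood at 26.27 CPM in the first D10.1 library of P2-CTCF-KO HPCs, against 5.28 to 7.79 CPM in the other 4. Tgfbr3 stood at 15.03 CPM in the first B9.3 library of wild-type HPCs, against 8.32 to 9.17 CPM in the other 3.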

How the results depend on the processing

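Over 141 combinations of a member and a comparison and all alternatives, 2004 values were compared with the main result. Of these, 1875 kept their call in the same direction or stayed uncalled, 116 lost the call and 5 gained one. A further 8 turned direction, with a call in the main fit or in the alternative. Values uncalled in both were not checked for direction. The alternative scaling to the totals of the other genes without TMM factors was chosen after seeing the data. All 8 values counted as turned came from it: the mesoderm against mESC values of Acvr1 (-0.19), Smurf1 (-0.17), Smad3 (-0.27), Smad5 (-0.46), Acvr1b (-0.56), Smad4 (-0.66) and Smad7 (-1.33), and the HPC against mESC value of Tgfbr1 (-0.25). For P2-CTCF-KO against wild-type mesoderm, 0 members were called by edgeR, 3 with DESeq2, 7 with no filter on low counts and 2 without TMM factors, and against P1-CTCF-KO mesoderm 0, with 5 under no filter and 1 without TMM factors. Without TMM factors, 21 of all 8670 genes were higher and 184 lower against wild type, and 5 and 134 against P1-CTCF-KO. The shares of all genes with DESeq2 and with no filter are not given here. Leaving out 1 library at a time gave 16 to 26 calls for mesoderm against mESCs (26 with all), 20 to 25 for wild-type HPCs against mesoderm, 15 to 23 for HPCs against mESCs, 13 to 17 for the HPC step in P1-CTCF-KO and 13 to 22 in P2-CTCF-KO, 0 to 2 for P2-CTCF-KO and 0 to 0 for P1-CTCF-KO against wild-type mesoderm, 0 to 0 for the knockouts against each other in mesoderm, 0 to 1 in HPCs, 0 to 0 for each against wild-type HPCs and 0 to 0 for both interactions. The counts of 16 and 17 came without the second and the first mESC library, and summing the libraries of a clone (the mESC pair included) left 18. The lone mESC library left when the other is dropped was assumed to vary like the other groups. With the clone as replicate block, the HPC step gave 20 calls in wild type, 17 in P1-CTCF-KO and 15 in P2-CTCF-KO, and 0 and 0 interactions. HPC ATAC-seq peaks lay at 15 member starts when peaks under the median width were left out, and CTCF peaks at 11 within 2 kb and at 28 over the gene body or 1 kb around it. The cause of these shifts was not tested. In HPCs, 24 members were too low to test between genotypes.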
